A study of Homo sapiens with 90 samples.

Results

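The genes described here copy DNA and divide the cell. They were 49 genes listed by role, 22 of DNA replication and 27 of mitosis, among 19774 genes measured in HepG2 cells. HepG2 is an established cell line from a human liver tumour. A gene entered through a probe set that carries its symbol and no other, and of several such probe sets that which was brightest on average over the 90 columns was used. All 49 were measured. The cells were treated for 24 h, beginning 24 h after plating, with the triazole fungicide fenbuconazole, the imidazole fungicide imazalil or 2,4-D (2,4-dichlorophenoxyacetic acid, a chlorophenoxy herbicide). Every well, controls included, held 0.2% DMSO. Each compound was given at 9 doses, from 0.001 µM to 10 µM in steps of about equal size on a log scale, with 3 replicates per dose. A group of 3 DMSO arrays was the control of all 3 compounds, so the comparisons with DMSO share their control arrays. The labels do not say whether replicates were separate cultures, so the p-values measure the spread between these arrays, which may be technical. Values are log2 intensities of Affymetrix HT HG-U133+ PM arrays, normalized by the authors within each compound's set of 30 columns. A change is the mean at a dose minus the DMSO mean of the same set, and the number after ± is its standard error from limma. In bulk RNA, fewer cycling cells and less RNA per cell cannot be told apart.

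A cell that divides passes through phases in which it prepares, copies and then separates its chromosomes. In late G1, cyclin E with CDK2 releases E2F transcription factors, which switch on the genes for licensing origins, for the replication fork and for nucleotide supply. MCM proteins, loaded with ORC1, CDC6 and CDT1, form the replicative helicase, and CDC45 and the GINS proteins activate it. Cyclin B with CDK1, PLK1 and the Aurora kinases drive mitosis, and CDC20 and UBE2C end it by having the cyclins degraded. Hepatocytes in adult liver seldom divide, whereas HepG2 cells proliferate in culture.

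The promoters of the replication and the mitosis genes differ in the sequences they carry. RefSeq promoters of GRCh38.p14, 250 bases before the transcription start to 50 bases after it, were given for 39 of the 49 genes. The letters searched on both strands were TTTGAA, the cell cycle genes homology region (CHR), the CCAAT box, and an E2F site (TTTGGCGC, TTTCGCGC, TTTCCCGC or TTTGCCGC). A gene counted if any of its listed promoters held the letters. The CHR letters stood in 13 of 21 mitosis genes (61.9%) and in 1 of 18 replication genes (5.56%), RRM1, against 15.5% of the 15399 measured genes with a promoter and 15.2% of all 35116 promoters. E2F letters stood in 12 of 18 replication genes (66.7%) and in 2 of 21 mitosis genes (9.52%), CDK1 and CENPA, against 5.38% of the measured genes and 3.31% of all promoters. CCAAT was found in 14 replication genes (77.8%) and 19 mitosis genes (90.5%), against 41.8% and 34.6%. A match is a run of letters and not evidence of binding.

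The promoters of 4 genes are printed because they belong to genes that the results return to and because they show both layouts. Capitals mark the searched letters on either strand. PLK1 (chr16:23678639-23678938, plus strand) and CCNB2 (chr15:59104896-59105195, plus strand), both mitosis genes, have a CCAAT box upstream of a CHR that begins 29 bases before the start site. CDC6 (chr17:40287629-40287928, plus strand) and MCM2 (chr3:127598161-127598460, plus strand), both replication genes, have E2F letters just downstream of the start site, and in MCM2 the letters of both strands overlap.
PLK1: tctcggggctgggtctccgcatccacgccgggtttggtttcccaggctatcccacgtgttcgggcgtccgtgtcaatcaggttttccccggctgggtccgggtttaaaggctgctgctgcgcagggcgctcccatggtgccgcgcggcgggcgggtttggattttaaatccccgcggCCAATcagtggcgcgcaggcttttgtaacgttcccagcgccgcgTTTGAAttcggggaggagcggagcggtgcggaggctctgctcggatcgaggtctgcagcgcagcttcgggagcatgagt
CCNB2: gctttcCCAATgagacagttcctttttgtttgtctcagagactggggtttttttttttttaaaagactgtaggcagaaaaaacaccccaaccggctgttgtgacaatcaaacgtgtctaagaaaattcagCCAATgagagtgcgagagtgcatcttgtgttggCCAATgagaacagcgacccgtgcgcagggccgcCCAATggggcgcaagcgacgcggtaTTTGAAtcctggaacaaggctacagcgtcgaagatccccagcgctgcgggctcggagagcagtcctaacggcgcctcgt
CDC6: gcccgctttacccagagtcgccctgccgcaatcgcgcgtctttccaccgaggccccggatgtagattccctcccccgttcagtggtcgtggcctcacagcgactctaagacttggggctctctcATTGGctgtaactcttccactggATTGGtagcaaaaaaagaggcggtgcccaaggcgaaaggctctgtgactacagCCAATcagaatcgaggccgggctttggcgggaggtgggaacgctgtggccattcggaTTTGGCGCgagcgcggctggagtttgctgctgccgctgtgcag
MCM2: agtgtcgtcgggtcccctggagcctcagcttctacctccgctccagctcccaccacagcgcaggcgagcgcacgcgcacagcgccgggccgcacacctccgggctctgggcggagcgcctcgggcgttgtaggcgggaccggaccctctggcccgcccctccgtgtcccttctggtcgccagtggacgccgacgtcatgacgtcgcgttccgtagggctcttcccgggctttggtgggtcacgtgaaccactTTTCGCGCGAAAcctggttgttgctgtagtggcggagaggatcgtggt

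None of the 49 genes passed an adjusted p of 0.05 in limma in any comparison made, at any dose of any compound or between compounds. Across all genes the same fits did make calls, with CYP1A1, a target of the aryl hydrocarbon receptor, the lowest adjusted p between imazalil and 2,4-D at 10 µM (1.02e-16). The probe sets used were bright, though the brightest of each gene had been chosen. Each of the 49 had a mean above the median of all genes, and 47 had a mean more than 2 log2 units above the highest array median, which ran from 3.86 to 4.10. Their levels on single arrays ranged from 4.04 to 11.69. As a check of the cell type, the mean of 7 hepatocyte markers was 12.00 to 12.26 on every array and that of 8 markers of fibroblasts, endothelium and leukocytes was 2.79 to 3.12.

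At 10 µM fenbuconazole, most of the genes lay slightly below DMSO. A total of 41 of 49 had a negative change, 19 of 22 replication genes and 22 of 27 mitosis genes, where 50.3% of all genes did. The median change was -0.048 for replication and -0.076 for mitosis genes, against -0.0009 for all genes. No gene of the 49 passed the adjusted threshold (lowest adjusted p = 0.876, BIRC5), against 3 of 19774 genes (0.0152%). An unadjusted p under 0.05 was found for 4 of them, BIRC5, CCNB2, TPX2 and MCM10, all negative, which is 8.16% of 49 against 4.74% of all genes. The 3 arrays at 10 µM all lay below the 3 DMSO arrays for 7 genes (MCM6, MCM10, GINS1, GINS2, CCNB2, TPX2 and BIRC5) and all above them for 0, against 4.21% and 4.84% of all genes. At the 8 lower doses between 23 and 33 of the 49 genes were negative, with 33 at 3 µM, against 49.9% to 54.8% of all genes. Leaving out arrays or replicate numbers in turn left 32 to 41 negative, and the lowest count, 32, came without replicate 1.

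**Figure D1:**
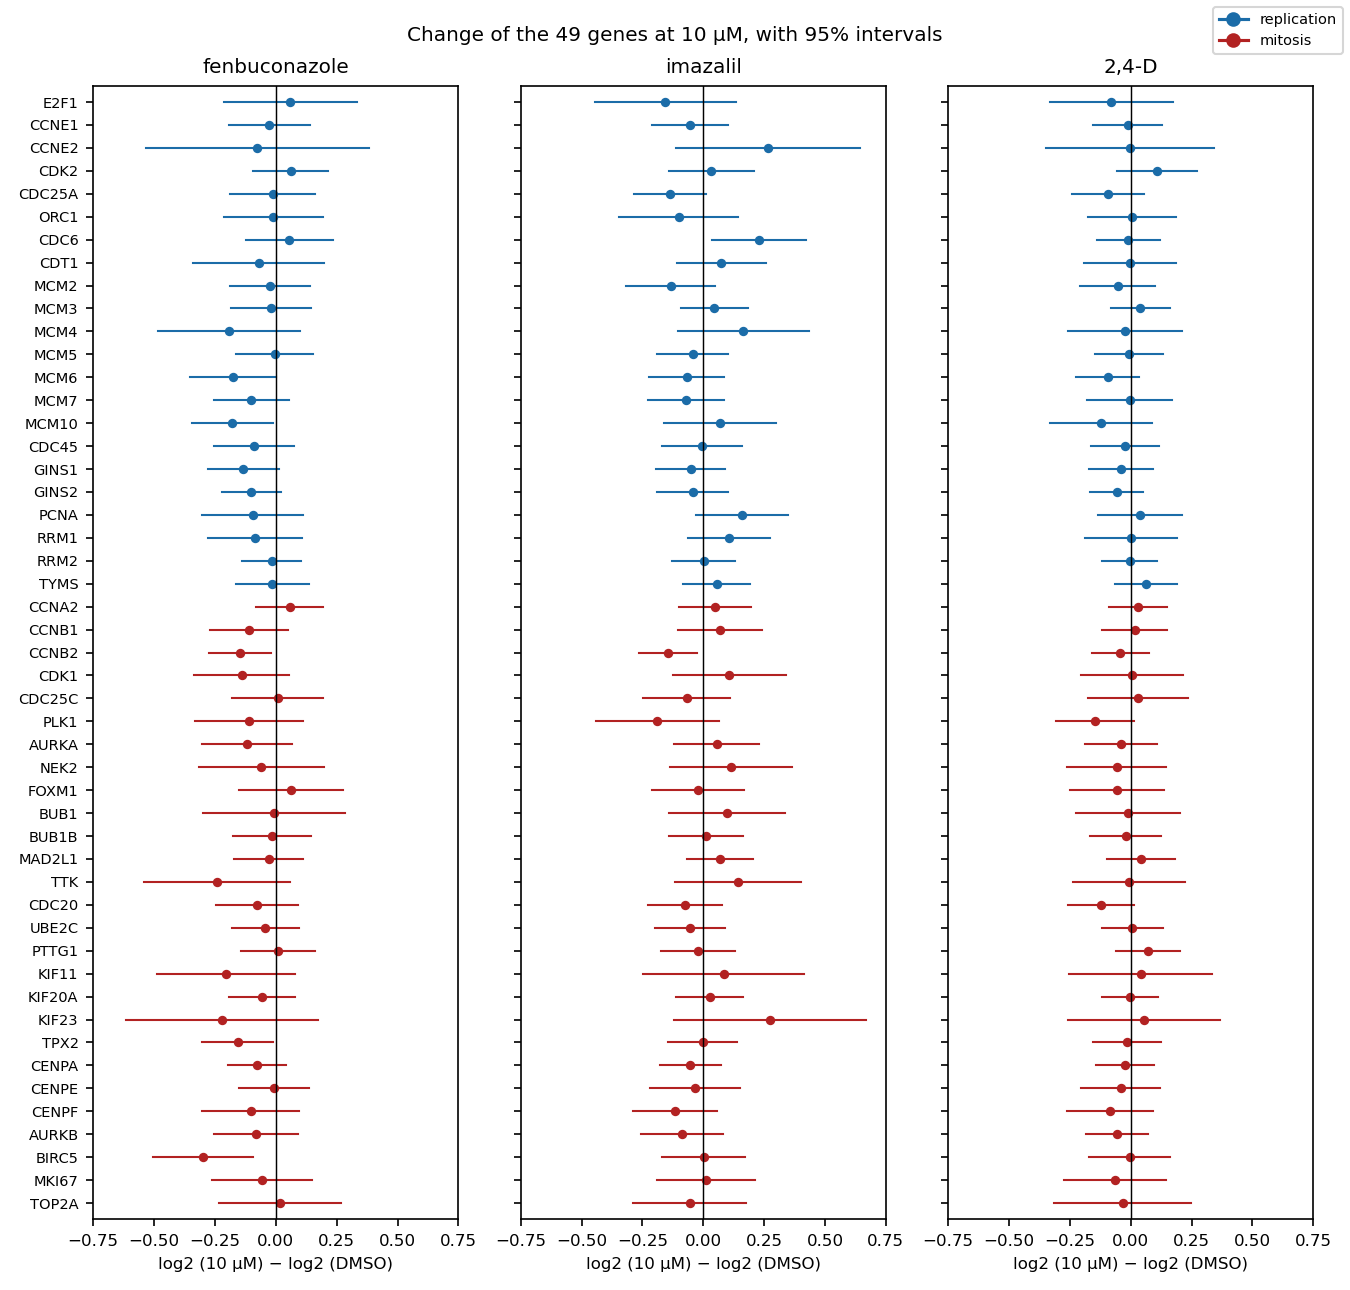
Change of each of the 49 genes at 10 µM against DMSO (log2, x axis) for fenbuconazole, imazalil and 2,4-D, with 95% intervals from limma as lines. Replication genes are blue and mitosis genes red. The points of fenbuconazole lie left of 0 for 41 genes, and all but 4 of its intervals cross 0.

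BIRC5, or survivin, a member of the chromosomal passenger complex, had the lowest change of the 49. It measured 9.68, 9.45 and 9.54 on the DMSO arrays and 9.39, 9.03 and 9.35 at 10 µM fenbuconazole. The 10 µM arrays all lay below the DMSO arrays, and their own spread, from 9.03 to 9.39, was wider than that of the DMSO arrays. The change was -0.30 ± 0.10, a 95% interval of 0.706 to 0.938 fold (adjusted p = 0.876). It rested on the chosen probe set, since the other BIRC5 probe sets, of mean level 9.18 and 8.82, gave 0.0047 and -0.077. Without replicate 2 at 10 µM, the array at 9.03, the change was -0.19.

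TTK, a spindle checkpoint kinase, measured 7.77, 7.22 and 7.34 on the DMSO arrays and 7.35, 7.14 and 7.12 at 10 µM fenbuconazole. The highest DMSO array stood apart and the groups overlapped, with a change of -0.24 ± 0.15, or -0.078 without DMSO replicate 1 (adjusted p = 0.999). KIF23, a kinesin of the central spindle, measured 6.50, 5.93 and 6.20 on the DMSO arrays and 6.20, 5.85 and 5.93 at 10 µM. Its replicates spread so widely that the change of -0.22 ± 0.19 had an interval of 0.654 to 1.13 fold, and it was -0.075 without DMSO replicate 1. TPX2, a spindle assembly factor that activates Aurora A, measured 10.40, 10.36 and 10.29 on the DMSO arrays and 10.17, 10.20 and 10.21 at 10 µM. Those groups did not overlap, and the change was -0.16 ± 0.071 (adjusted p = 0.999). CCNB2, cyclin B2, measured 9.79, 9.74 and 9.66 on the DMSO arrays and 9.57, 9.63 and 9.55 at 10 µM. The groups were again apart, by a small margin, with a change of -0.15 ± 0.062 (adjusted p = 0.999). MCM10, which helps start the fork, measured 7.55, 7.53 and 7.52 on the DMSO arrays and 7.43, 7.14 and 7.48 at 10 µM. All DMSO arrays lay above all treated arrays, and the change of -0.18 ± 0.081 (adjusted p = 0.999) was largest on the array at 7.14.

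The highest changes with fenbuconazole were small. FOXM1, a transcription factor of mitosis genes, measured 7.53, 7.66 and 7.53 on the DMSO arrays and 7.57, 7.85 and 7.50 at 10 µM, a change of 0.063 ± 0.10. CDK2 measured 7.51, 7.55 and 7.41 on the DMSO arrays and 7.57, 7.51 and 7.57 at 10 µM, a change of 0.061 ± 0.075. E2F1 measured 5.41, 5.97 and 5.71 on the DMSO arrays and 5.63, 5.71 and 5.92 at 10 µM, a change of 0.060 ± 0.13. The groups overlapped in all 3 genes. PTTG1, or securin, measured 10.62, 10.71 and 10.69 on the DMSO arrays and 10.59, 10.82 and 10.63 at 10 µM, also with overlap and a change of 0.011 ± 0.074.

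By role, the lower values at 10 µM fenbuconazole were spread over most groups. All 5 genes of origin firing and the fork were negative, with changes from -0.18 to -0.089. All 4 genes of spindle motors and assembly, all 4 of the spindle checkpoint and all 5 of the centromere and passenger complex were negative, with medians of -0.18, -0.023 and -0.08. Of origin licensing, 8 of 9 were negative, with a median of -0.023. The 3 genes of nucleotide supply had changes from -0.084 to -0.014. Of G2/M entry, 6 of 9 were negative, with a median of -0.11, and of G1/S control 3 of 5, with a median of -0.012. Of anaphase and exit, CDC20 and UBE2C were negative, at -0.078 and -0.042, and PTTG1 was positive, at 0.011. The chromosome genes had both signs, with MKI67 at -0.057 and TOP2A at 0.017. No role held a gene past the adjusted threshold.

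Imazalil at 10 µM did not show the same count. Of the 49 genes 25 lay above DMSO and 24 below, where 51.4% of all genes lay below. The medians were -0.0021 for replication and 0.003 for mitosis genes, against -0.0043 for all genes. No gene passed (lowest adjusted p = 0.758), against 21 of all genes (0.106%). An unadjusted p under 0.05 was found for CDC6 and CCNB2, 4.08% of 49 against 5.97% of all genes. The 10 µM arrays all lay below DMSO for 6 genes, MCM2, MCM6, GINS2, CCNB2, PLK1 and CENPA, and all above for 2, CDC6 and CDT1, against 6.78% and 5.94% of all genes.

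CDC6, which loads the MCM helicase, measured 8.09, 8.20 and 8.22 on the DMSO arrays and 8.27, 8.48 and 8.45 at 10 µM imazalil. The groups did not overlap, and the change of 0.23 ± 0.093 was an interval of 1.03 to 1.34 fold (adjusted p = 0.764). The other CDC6 probe set gave 0.18. KIF23 measured 6.56, 5.97 and 6.35 on the DMSO arrays and 6.35, 6.52 and 6.83 at 10 µM. A treated array reached 6.83 and the groups overlapped, with a change of 0.28 ± 0.19. CCNE2, a cyclin E of S-phase entry, measured 5.09, 4.66 and 4.53 on the DMSO arrays and 5.03, 4.95 and 5.11 at 10 µM. The highest DMSO array lay within the treated ones, and the change was 0.27 ± 0.18.

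PLK1 measured 7.56, 7.41 and 7.56 on the DMSO arrays and 7.35, 7.30 and 7.32 at 10 µM imazalil. The treated arrays lay close together and below all DMSO arrays, while other doses of the set spread more widely, and the change of -0.19 ± 0.12 had an adjusted p of 0.886. CCNB2 measured 9.76, 9.70 and 9.62 on the DMSO arrays and 9.50, 9.61 and 9.53 at 10 µM. These groups did not overlap, by a narrow margin, with a change of -0.14 ± 0.058 (adjusted p = 0.758). E2F1 measured 5.35, 5.85 and 5.63 on the DMSO arrays and 5.45, 5.58 and 5.34 at 10 µM. The DMSO arrays spread over a wider range than the treated ones and overlapped them, with a change of -0.16 ± 0.14.

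By role with imazalil, all 4 genes of the spindle checkpoint and all 3 of nucleotide supply lay above DMSO, with medians of 0.084 and 0.056. All 3 genes of anaphase and exit and 4 of 5 of the centromere and passenger complex lay below, with medians of -0.054 and -0.053. The other roles held both signs, with medians from -0.056 to 0.056.

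For 2,4-D at 10 µM, 34 of 49 genes lay below DMSO and 15 above, where 49.7% of all genes lay below. The medians were -0.0088 for replication and -0.014 for mitosis genes, against 0.0008 for all genes. The whole array gave 0 calls (0%), and the 49 genes gave 0, by limma. None of the 49 had an unadjusted p under 0.05, against 3.96% of all genes. The 10 µM arrays all lay below DMSO for MCM6 and CDC20 and all above for 0 genes, against 3.3% and 3.45% of all genes. MCM6 did so with all 3 compounds, each time against the same 3 DMSO arrays. On these its SD was 0.0096, 0.014 and 0.0137 in the fenbuconazole, imazalil and 2,4-D sets. Its residual SD over each whole set was larger, at 0.096, 0.079 and 0.061.

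PLK1 measured 7.71, 7.60 and 7.72 on the DMSO arrays and 7.61, 7.39 and 7.59 at 10 µM 2,4-D. The groups overlapped at 7.60 to 7.61, and the change was -0.15 ± 0.078 (adjusted p = 1). CDC20, the activator of the anaphase-promoting complex, measured 9.83, 9.88 and 9.87 on the DMSO arrays and 9.69, 9.79 and 9.73 at 10 µM. The groups did not overlap, with a change of -0.12 ± 0.066 (adjusted p = 1). CDC20 lay below DMSO in 26 of the 27 dose groups of the 3 compounds, the highest count of the 49, and PTTG1 in 3 of 27, the lowest. All 27 counts rest on the same 3 DMSO arrays. MCM10 measured 7.72, 7.73 and 7.66 on the DMSO arrays and 7.80, 7.41 and 7.54 at 10 µM. Its treated arrays spread widely and 1 of them exceeded the DMSO arrays, and the change of -0.12 ± 0.10 had a 95% interval of -0.33 to 0.085, which includes 0.

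The highest changes with 2,4-D were CDK2, 7.65, 7.72 and 7.56 on the DMSO arrays and 7.74, 7.65 and 7.87 at 10 µM, a change of 0.11 ± 0.080, then PTTG1, 10.67, 10.77 and 10.79 on the DMSO arrays and 10.72, 10.88 and 10.84 at 10 µM, a change of 0.070 ± 0.064, and TYMS, thymidylate synthase, 11.46, 11.37 and 11.48 on the DMSO arrays and 11.58, 11.44 and 11.49 at 10 µM, a change of 0.063 ± 0.062. The groups overlapped in each.

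**Figure D2:**
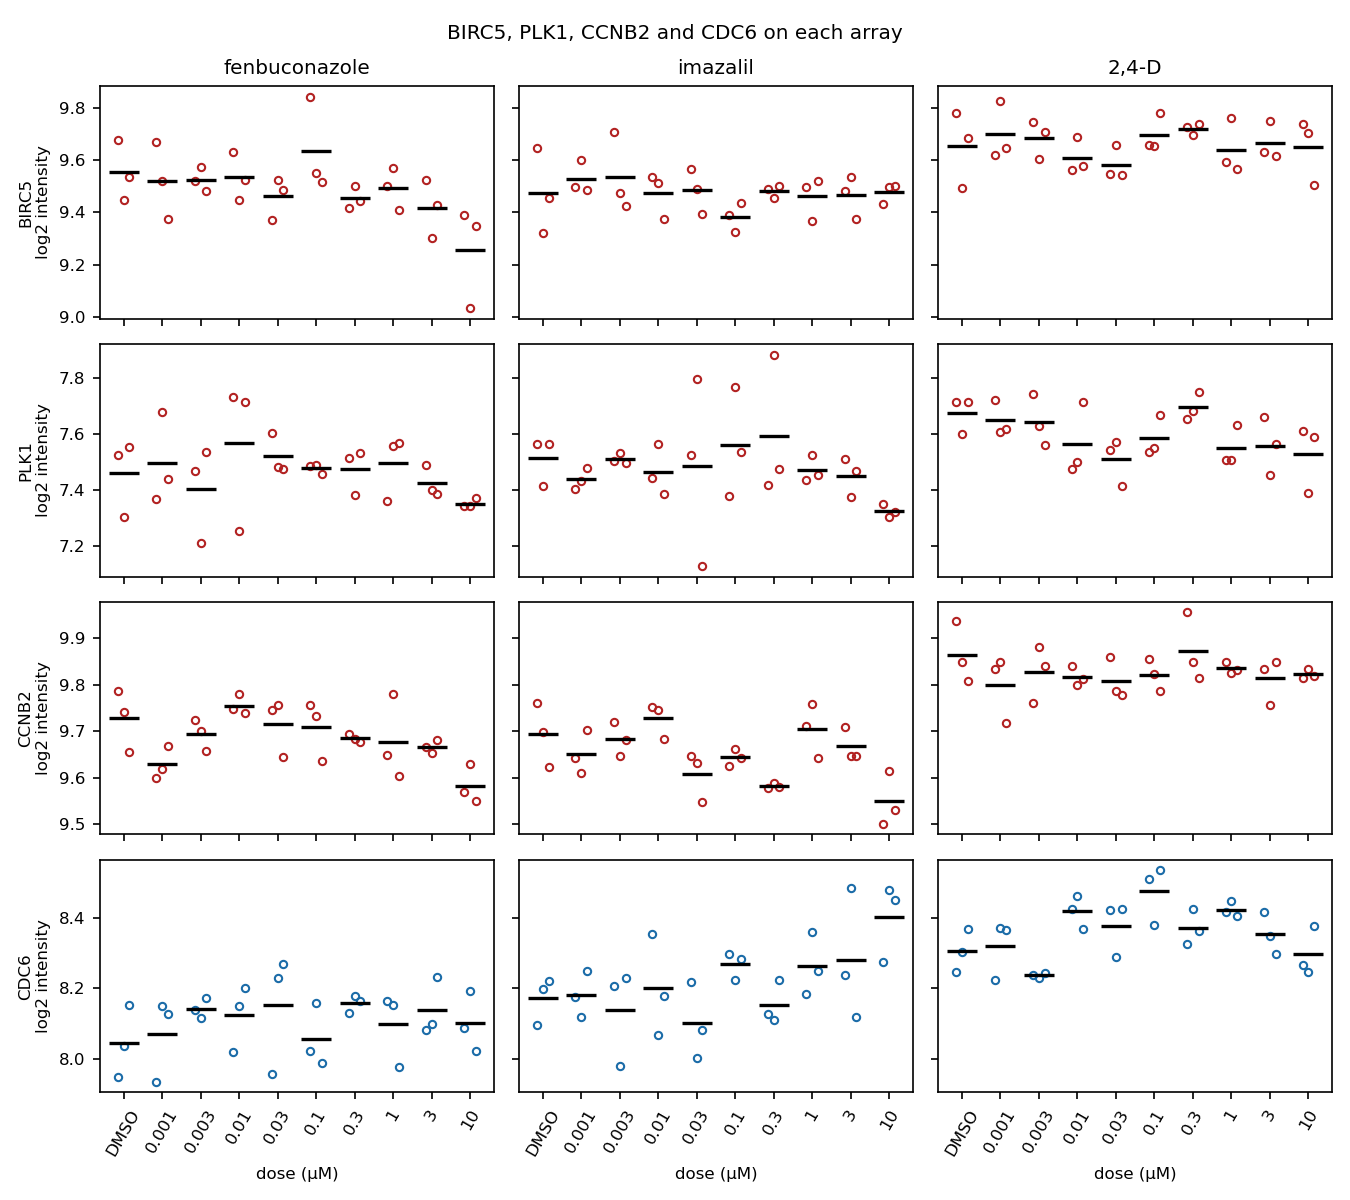
Log2 intensity (y axis) of BIRC5, PLK1, CCNB2 and CDC6 on each array by dose (x axis, µM, evenly spaced steps) in the sets of fenbuconazole, imazalil and 2,4-D, with circles for arrays and black bars for group means. The BIRC5 mean is lowest at 10 µM fenbuconazole, the CCNB2 mean is lowest at 10 µM of both fungicides, and the CDC6 mean is highest at 10 µM imazalil.

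Of the 8 genes most often used as markers of cycling cells, none passed at 10 µM of any compound, and in 1 of the 24 comparisons (4.17%) the groups did not overlap, where over all genes the arrays lay all below or all above DMSO for 4.21% and 4.84% with fenbuconazole, 6.78% and 5.94% with imazalil and 3.3% and 3.45% with 2,4-D. The proliferation antigen MKI67, or Ki-67, measured 8.01, 7.77 and 8.13 on the DMSO arrays and 8.06, 7.99 and 7.70 at 10 µM fenbuconazole, a change of -0.057 ± 0.10. For imazalil MKI67 measured 8.06, 7.82 and 8.16 on the DMSO arrays and 7.91, 8.01 and 8.15 at 10 µM, a change of 0.012 ± 0.098. With 2,4-D MKI67 measured 8.24, 8.002 and 8.29 on the DMSO arrays and 8.07, 7.93 and 8.33 at 10 µM, a change of -0.064 ± 0.10. The treated and DMSO arrays overlapped each time. TOP2A, the topoisomerase that untangles chromosomes before they part, measured 10.76, 10.48 and 10.81 on the DMSO arrays and 10.79, 10.83 and 10.48 at 10 µM fenbuconazole, a change of 0.017 ± 0.12. For imazalil TOP2A measured 10.71, 10.36 and 10.74 on the DMSO arrays and 10.55, 10.41 and 10.68 at 10 µM, a change of -0.055 ± 0.11. With 2,4-D TOP2A measured 10.80, 10.49 and 10.84 on the DMSO arrays and 10.87, 10.49 and 10.66 at 10 µM, a change of -0.034 ± 0.14. The lowest DMSO array, replicate 2, lay below the treated arrays in every set. A second bright probe set of TOP2A, of mean level 10.33, gave -0.16, 0.24 and -0.0051, so the probe sets differed in sign for both fungicides. CCNB1, cyclin B1, measured 10.07, 9.89 and 10.06 on the DMSO arrays and 10.02, 9.94 and 9.74 at 10 µM fenbuconazole, a change of -0.11 ± 0.078. For imazalil CCNB1 measured 10.10, 9.88 and 10.06 on the DMSO arrays and 10.06, 10.18 and 10.02 at 10 µM, a change of 0.069 ± 0.085. With 2,4-D CCNB1 measured 10.21, 10.04 and 10.16 on the DMSO arrays and 10.24, 10.05 and 10.17 at 10 µM, a change of 0.016 ± 0.065. A fenbuconazole array, at 9.74, lay below all DMSO arrays and an imazalil array, at 10.18, above them.

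CDK1, the kinase of mitosis entry, measured 10.76, 10.60 and 10.62 on the DMSO arrays and 10.68, 10.40 and 10.49 at 10 µM fenbuconazole, a change of -0.14 ± 0.095. For imazalil CDK1 measured 10.74, 10.54 and 10.61 on the DMSO arrays and 10.59, 10.80 and 10.82 at 10 µM, a change of 0.11 ± 0.11. With 2,4-D CDK1 measured 10.83, 10.56 and 10.66 on the DMSO arrays and 10.84, 10.51 and 10.71 at 10 µM, a change of 0.0062 ± 0.10. The changes with fenbuconazole and imazalil had opposite signs, and the arrays overlapped DMSO in both. PCNA, the sliding clamp of the polymerases, measured 11.47, 11.22 and 11.37 on the DMSO arrays and 11.33, 11.29 and 11.16 at 10 µM fenbuconazole, a change of -0.095 ± 0.10. For imazalil PCNA measured 11.43, 11.14 and 11.33 on the DMSO arrays and 11.35, 11.42 and 11.60 at 10 µM, a change of 0.16 ± 0.092. With 2,4-D PCNA measured 11.48, 11.20 and 11.42 on the DMSO arrays and 11.60, 11.34 and 11.28 at 10 µM, a change of 0.040 ± 0.084. The highest imazalil array stood above the DMSO arrays and the other imazalil arrays lay among them. MCM2, a helicase subunit, measured 9.74, 9.93 and 9.68 on the DMSO arrays and 9.66, 9.82 and 9.79 at 10 µM fenbuconazole, a change of -0.023 ± 0.080. For imazalil MCM2 measured 9.69, 9.91 and 9.71 on the DMSO arrays and 9.66, 9.65 and 9.60 at 10 µM, a change of -0.13 ± 0.088. With 2,4-D MCM2 measured 9.84, 10.10 and 9.87 on the DMSO arrays and 9.88, 9.93 and 9.84 at 10 µM, a change of -0.053 ± 0.074. With imazalil the treated arrays lay just below the lowest DMSO array, the single case without overlap, and with the other compounds the groups overlapped. CCNE1, cyclin E1, measured 7.50, 7.39 and 7.37 on the DMSO arrays and 7.40, 7.33 and 7.46 at 10 µM fenbuconazole, a change of -0.026 ± 0.082. For imazalil CCNE1 measured 7.46, 7.36 and 7.32 on the DMSO arrays and 7.33, 7.43 and 7.22 at 10 µM, a change of -0.056 ± 0.076. With 2,4-D CCNE1 measured 7.59, 7.58 and 7.50 on the DMSO arrays and 7.48, 7.60 and 7.56 at 10 µM, a change of -0.013 ± 0.070. None of these differences exceeded the spread of the DMSO arrays. E2F1, given above for the fungicides, measured 5.59, 6.16 and 5.88 on the DMSO arrays and 5.67, 5.74 and 5.99 at 10 µM 2,4-D, a change of -0.079 ± 0.12 with overlap.

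Below 10 µM the genes gave no calls either. Over the 8 lower doses, 0 of 392 tests of the 49 genes passed for each compound, where all genes gave 0% for fenbuconazole, 0.000632% for imazalil and 0% for 2,4-D. Unadjusted p-values under 0.05 numbered 2, 3 and 12 of 392 (0.51%, 0.765% and 3.06%) for fenbuconazole, imazalil and 2,4-D, against 3.03%, 3.61% and 4.29% of all genes. The 12 with 2,4-D included CCNE2 at 1 µM, which measured 5.25, 4.89 and 4.73 on the DMSO arrays and 5.40, 5.53 and 5.40 at 1 µM, a change of 0.49 ± 0.17 (adjusted p = 0.937). KIF23 had opposite signs at neighbouring doses, -0.35 ± 0.15 at 0.03 µM and 0.37 ± 0.15 at 0.1 µM. These genes had the highest residual SDs of the 49 in the 2,4-D set, 0.22 and 0.20. The F test over the 9 doses called 0 of 49 genes in each set, against 0.0101%, 0.0354% and 0% of all genes. Its unadjusted p was under 0.05 for 0, 0 and 3 of 49 genes (KIF23, CDC6 and MCM4 with 2,4-D), against 3.52%, 4.63% and 5.27%.

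A slope over dose, fitted to the 27 treated arrays without the controls, asks whether a gene changed steadily from 0.001 to 10 µM. It called 0 of 49 genes for each compound by limma, against 0.0152% of all genes for fenbuconazole, 0.137% for imazalil and 0% for 2,4-D. The unadjusted p was under 0.05 for 4 genes with fenbuconazole, all with a negative slope (BIRC5, GINS2, PTTG1 and TPX2), for 3 with imazalil, all positive (CDC6, CDC20 and RRM2), and for 1 with 2,4-D, positive (CDK2), against 6.01%, 7.36% and 4.56% of all genes. The strongest slopes by moderated t were PTTG1 at -0.041 ± 0.013 and TPX2 at -0.034 ± 0.013 log2 per 10-fold dose of fenbuconazole. For imazalil they were CDC6 at 0.050 ± 0.017 and CDC20 at 0.034 ± 0.013. Without replicate 2 the CDC6 slope was 0.014. For 2,4-D they were CDK2 at 0.039 ± 0.014 and CENPF, a kinetochore protein, at -0.027 ± 0.014. CENPF measured 9.46, 9.35 and 9.42 at 0.001 µM and 9.30, 9.31 and 9.37 at 10 µM 2,4-D, so its lowest and highest doses overlapped. With replicate numbers left out in turn the slopes ran from -0.062 to -0.027 for PTTG1, from -0.041 to -0.022 for TPX2 and from -0.042 to -0.016 for CENPF. The lowest adjusted p of a slope was 0.527, 0.432 and 1 in the same order of compounds.

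The 3 lowest doses offer a reference that does not use the DMSO arrays. Against their mean, 10 µM fenbuconazole was lower in 39 of 49 genes, with medians of -0.042 for replication and -0.053 for mitosis genes and 0.0032 for all genes. None passed (lowest adjusted p = 0.458, BIRC5), against 0.0607% of all genes. The unadjusted p was under 0.05 for 7 genes (14.3%), all negative, against 5.48% of all genes, namely BIRC5, TPX2, CCNB1, CCNB2, MCM10, GINS2 and MCM6. BIRC5 was at -0.27 ± 0.081 and TPX2 at -0.19 ± 0.058 on this reference. Imazalil gave 0 calls among the 49 and 2 unadjusted (CDC6 at 0.23 ± 0.076 and CCNB2 at -0.14 ± 0.048), against 0.228% and 7.32% of all genes. 2,4-D gave 0 calls and 1 unadjusted (CDK2 at 0.15 ± 0.065), against 0% and 4.33%.

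The compounds were also compared with each other at 10 µM, each value taken relative to the DMSO mean of its own set. Imazalil against fenbuconazole gave 0 calls among the 49 (lowest adjusted p = 0.274), against 0.0405% of all genes. Its unadjusted p was under 0.05 for 10 genes (20.4%), against 9.89% of all genes, and all 10 were higher with imazalil: BIRC5, TTK, PCNA, MCM4, KIF23, MCM10, CDK1, TPX2, CCNB1 and RRM1. The differences ran from 0.15 ± 0.067 for TPX2 to 0.49 ± 0.20 for KIF23, with 0.30 ± 0.087 for BIRC5 (95% interval 0.12 to 0.48) and 0.38 ± 0.13 for TTK (0.12 to 0.65). Over the 49 genes 32 were higher with imazalil, where 47.0% of all genes were. The median difference was 0.064, against -0.011 for all genes. MCM4, a helicase subunit, had a difference of 0.36 ± 0.14 that rested on the chosen probe set, of mean level 9.65. Its other probe sets, of mean levels 9.64, 8.42 and 8.26, gave -0.11, 0.16 and -0.00050. The BIRC5 difference likewise rested on its chosen probe set, since the others gave -0.063 and 0.032, and it was 0.16 without replicate 2 and 0.090 with the mean of its probe sets. Of the 10 genes 7 had other probe sets, and 9 of these 14 gave a positive difference. The positive ones included dim probe sets of KIF23 and RRM1, with means of 3.12 and 2.44, below the lowest array median of 3.86.

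Imazalil against 2,4-D gave 0 calls (lowest adjusted p = 0.293, CDC6), against 0.253% of all genes, and 2 unadjusted (4.08%), CDC6 at 0.24 ± 0.079 and CCNB2 at -0.10 ± 0.050, against 9% of all genes. Fenbuconazole against 2,4-D gave 0 calls (lowest adjusted p = 0.338, BIRC5), against 0.091% of all genes, and 2 unadjusted (4.08%), BIRC5 at -0.29 ± 0.087 and TPX2 at -0.14 ± 0.066, against 6.87%. The second CDC6 probe set, of mean level 7.97, gave an imazalil minus 2,4-D difference of 0.045, and the mean of the probe sets 0.14. The other BIRC5 probe sets gave fenbuconazole minus 2,4-D differences of -0.0068 and -0.068, and the value was -0.13 without replicate 2 and -0.12 with the mean of the probe sets. Both BIRC5 comparisons use the same fenbuconazole arrays. At the 8 lower doses the 3 pairs of compounds gave 0 calls in 1176 tests and 54 unadjusted (4.59%), against 0.000843% and 5.88% of all genes.

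Replication and mitosis genes were set against each other on every array by the mean of each group after subtraction of the DMSO mean. At 10 µM fenbuconazole the replication mean was -0.057, -0.061 and -0.051 on the 3 arrays and the mitosis mean -0.059, -0.072 and -0.11, where the DMSO arrays gave 0.019, 0.015 and -0.034 for replication and 0.07, -0.059 and -0.011 for mitosis. The replication means all lay below the DMSO arrays, and the mitosis means did so except for the first, which was level with the lowest DMSO array. The mitosis group minus the replication group was -0.025 ± 0.032 (SD, n = 3) at 10 µM against 0 ± 0.066 on DMSO, so the groups did not part beyond the spread of the controls. At 10 µM imazalil the means were 0.015 ± 0.02 and 0.0073 ± 0.018, and for 2,4-D -0.017 ± 0.036 and -0.02 ± 0.04 (SD, n = 3). The difference between the groups was -0.0082 ± 0.0086 for imazalil and -0.0024 ± 0.022 for 2,4-D.

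**Figure D3:**
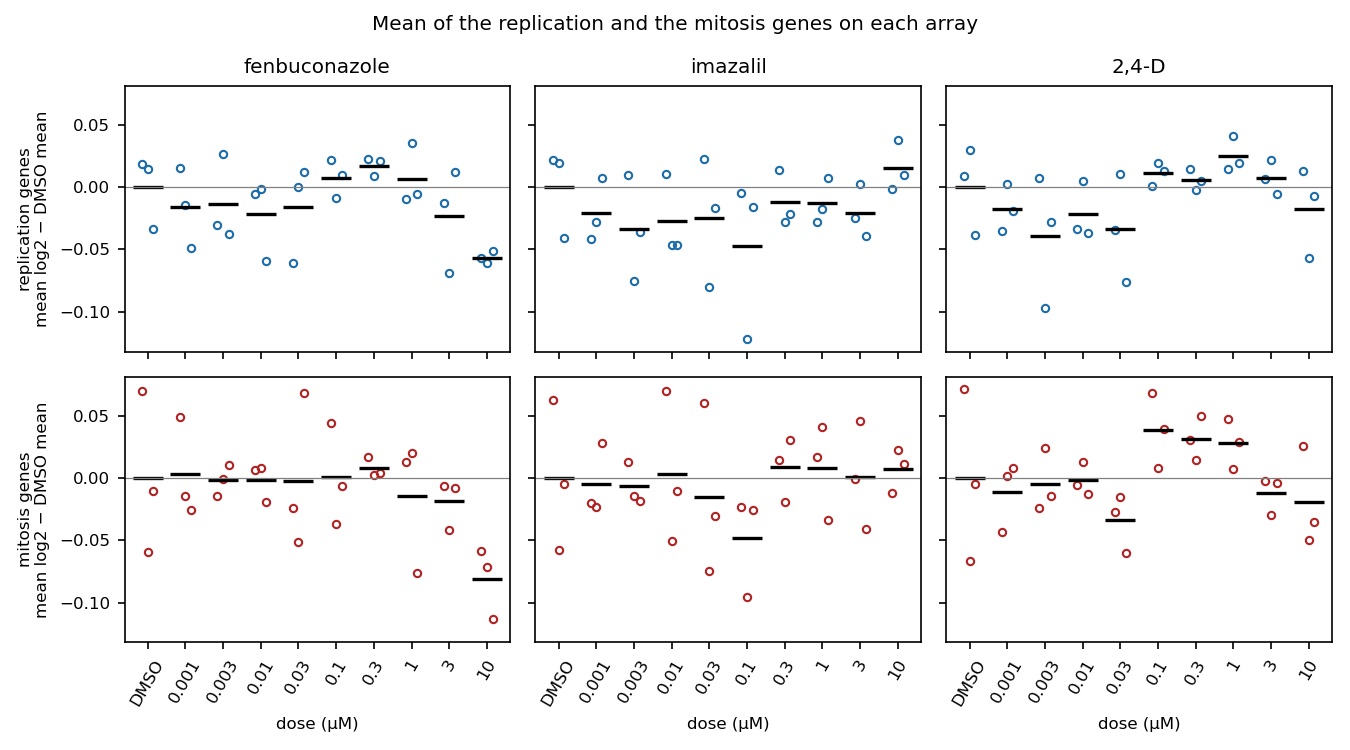
Mean log2 value of the 22 replication genes (top) and the 27 mitosis genes (bottom) on each array, minus the DMSO mean of the set (y axis), by dose (x axis, µM, evenly spaced steps). Circles are arrays and black bars group means, and the lowest fenbuconazole means of both groups are at 10 µM, at -0.057 and -0.081.

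The spread of an array's values moved with these means. The interquartile range over all genes was 4.42 to 4.50 on the 10 µM fenbuconazole arrays and 4.42 to 4.54 on the DMSO arrays, and 4.51 to 4.56 at 10 µM imazalil. Across the 30 arrays of a set, it correlated with the mitosis mean at Pearson r = 0.74, 0.83 and 0.84 (Spearman rho = 0.80, 0.75 and 0.84) and with the replication mean at r = 0.59, 0.81 and 0.46 (rho = 0.62, 0.70 and 0.46) for fenbuconazole, imazalil and 2,4-D. Without the 2 arrays farthest from the median spread, r was 0.75, 0.74 and 0.84 for mitosis and 0.54, 0.67 and 0.56 for replication. These are descriptions over arrays that share their normalization, and the part of the array spread in the lower values was not tested apart from the fit that follows. With the interquartile range as a covariate, 39 of 49 genes were negative at 10 µM fenbuconazole, with medians of -0.042 and -0.071, and 0 passed. With this covariate 30 of 49 were negative with imazalil and 32 of 49 with 2,4-D. At 0.1 µM imazalil, where the range was lowest in that set (4.29 to 4.49), 39 of 49 genes were also negative, with a median of -0.042. Of all genes 51.9% were negative there. At 0.01 µM fenbuconazole, with the lowest mean range of its set (4.43), 25 of 49 were negative, with a median of -0.0031. At 0.03 µM 2,4-D, with the lowest mean range of its set (4.47), 29 of 49 were negative, with a median of -0.022.

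**Figure D4:**
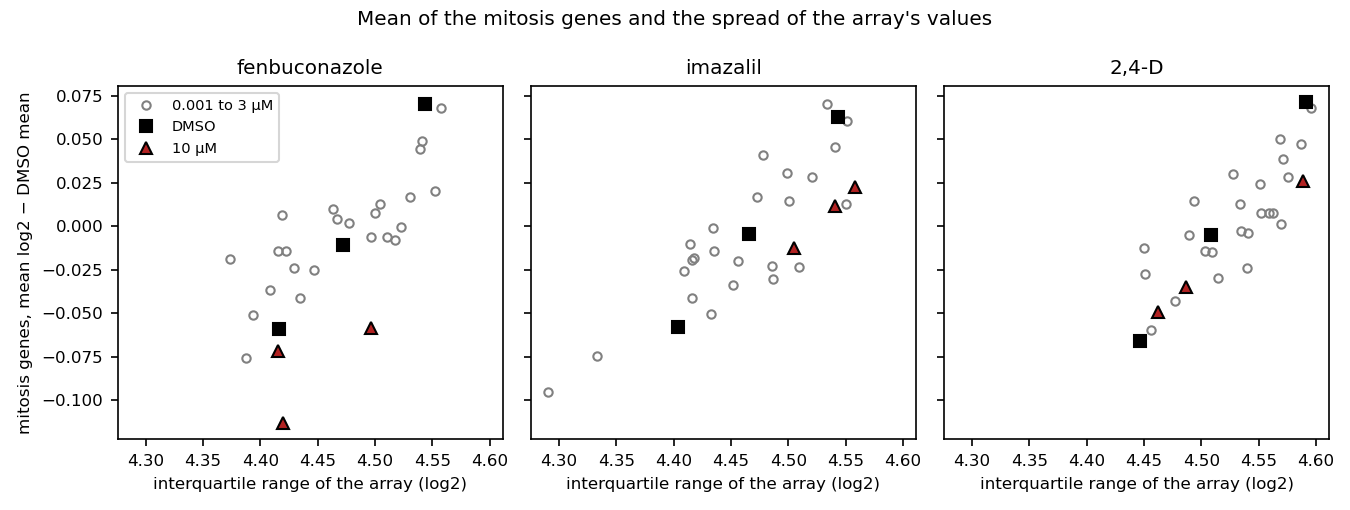
Mean of the 27 mitosis genes on each array (y axis, log2 minus the DMSO mean) against the interquartile range of all genes on that array (x axis, log2) for each compound's set of 30 arrays. Squares are DMSO, triangles 10 µM and circles the other doses, and the fenbuconazole triangles lie at -0.059, -0.072 and -0.11.

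Single pairs of the 49 genes had low median correlations from array to array. In the imazalil set, though, they lay above those of all genes at least as bright as the lowest of the 49. Residuals, the values minus their group mean, had a median correlation between replication genes of -0.045, 0.11 and 0.047 in the fenbuconazole, imazalil and 2,4-D sets, between mitosis genes of 0.056, 0.15 and 0.016, and between the groups of 0.0055, 0.087 and -0.0047. After the array spread was regressed out these lay between -0.022 and 0.067. All genes at or above the level of the lowest of the 49 had medians of 0.014, 0.036 and 0.015 before this step. After it they had 0.0018, 0.003 and 0.0051. Before this step the imazalil values all lay above that reference, and those of the other sets lay on both sides of it. After it, imazalil gave 0.032 between replication genes, 0.060 between mitosis genes and -0.0085 between the groups. The residual SD had a median of 0.089, 0.090 and 0.081 for replication and 0.10, 0.096 and 0.089 for mitosis genes, below the 0.12, 0.11 and 0.10 of the 8685 genes whose mean reached that of the lowest of the 49.

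The intervals put bounds on the change of each chosen probe set, as far as the spread between these arrays, which may be technical, goes. At 10 µM the 95% interval of the change lay within 1.5-fold of DMSO in either direction for 48, 47 and 49 of the 49 genes with fenbuconazole, imazalil and 2,4-D, where this held for 95.3%, 95.4% and 98.3% of all genes. It lay within 2-fold for all 49 with each compound. The widest were KIF23 and CCNE2, which reached down to 0.654 and 0.69 with fenbuconazole and up to 1.59 and 1.56 with imazalil.

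Wider lists of the same pathways were read in the same way. Of 42 further replication genes, such as polymerases, clamp loaders and RPA subunits, 31 lay below DMSO at 10 µM fenbuconazole (median -0.078). Of 59 further mitosis genes, such as condensins and kinetochore proteins, 54 did (median -0.077), against 50.3% of all genes. None passed, with 4 and 6 unadjusted (9.52% and 10.2%, against the 4.74% above). The extremes were BRCA1, a DNA repair protein, at -0.26 ± 0.10 and CHAF1A, a histone chaperone, at 0.14 ± 0.076, and SGO1, a guardian of sister chromatid cohesion, at -0.35 ± 0.13 and CENPI, a centromere protein, at 0.26 ± 0.14. The SGO1 probe set had a mean of 3.74, below the lowest array median of 3.86, so its value is that of a dim probe set. With imazalil 29 of 42 and 36 of 59 lay above DMSO (medians 0.041 and 0.038), from POLD3, a polymerase delta subunit, at -0.14 ± 0.073 to DBF4, the activator of CDC7 kinase, at 0.22 ± 0.15, and from TROAP, a spindle protein, at -0.18 ± 0.089 to CENPK at 0.30 ± 0.18. With 2,4-D 19 of 42 and 25 of 59 lay above DMSO (medians -0.0081 and -0.0097), from WDHD1, a fork protein, at -0.17 ± 0.10 to TIMELESS, a fork protection factor, at 0.15 ± 0.073, and from CENPM at -0.19 ± 0.095 to CDCA2 at 0.15 ± 0.17. Unadjusted p-values under 0.05 numbered 0 of 42 and 4 of 59 with imazalil (0% and 6.78%, against 5.97% of all genes). With 2,4-D they numbered 1 of 42 and 1 of 59 (2.38% and 1.69%, against 3.96%). No gene of these lists passed in any of these comparisons.

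A further list held 31 regulators of the cycle, such as D-type cyclins, inhibitors and pocket proteins. Of these, 18, 16 and 17 lay below DMSO at 10 µM fenbuconazole, imazalil and 2,4-D, against 50.3%, 51.4% and 49.7% of all genes. The regulators had medians of -0.0098, -0.0041 and -0.0086. An unadjusted p under 0.05 was found for 0, 1 and 0 of them (0%, 3.23% and 0%), against 4.74%, 5.97% and 3.96% of all genes. They ranged from CCND2 at -0.27 ± 0.15 to E2F4 at 0.16 ± 0.13 with fenbuconazole, from CCNG2 at -0.18 ± 0.12 to the inhibitor CDKN1B at 0.34 ± 0.16 with imazalil, and from CDKN2B at -0.15 ± 0.16 to BTG1 at 0.14 ± 0.078 with 2,4-D. The CDKN2B probe set, with a mean of 3.34, also lay below the lowest array median. The unadjusted case was CCND1, cyclin D1, at 0.29 ± 0.11 with imazalil (adjusted p = 0.738). CDKN1A, the p21 inhibitor that p53 induces, was at 0.13 ± 0.097, -0.0046 ± 0.10 and -0.025 ± 0.075 at 10 µM fenbuconazole, imazalil and 2,4-D.

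A gene's other probe sets gave a second reading. Of the 49 genes, 32 had others, 54 in all. At 10 µM 36, 33 and 34 of the 54 had the sign of the chosen probe set with fenbuconazole, imazalil and 2,4-D. Some of the 54 were dim, down to a mean of 2.33 for CENPF, below the lowest array median of 3.86. With fenbuconazole 39 of the 54 were negative.

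The promoter letters shown above can be set beside the changes as a description. At 10 µM fenbuconazole the 14 genes with CHR letters had a median of -0.081 and the 25 without of -0.026. Of these, 12 of the 14 and 21 of the 25 were negative. Of the 14 genes, 13 were mitosis genes, so this split overlaps with that of mitosis against replication. The 14 with E2F letters had a median of -0.073 and the 25 without of -0.057, with 12 and 21 negative. For imazalil the CHR medians were -0.021 with the letters and -0.0057 without, and for 2,4-D -0.021 with the letters and -0.011 without. The E2F medians were -0.048 with the letters and 0.0014 without for imazalil, and -0.016 and -0.013 for 2,4-D.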

How the data were processed

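The authors deposited log2 values of Affymetrix HT HG-U133+ PM arrays, normalized by RMA in a separate table for each compound. RMA and Partek are named in the submitters' processing notes, and their versions are not given in the sources used here. RMA normalizes arrays to a common distribution, so a shift shared by most genes would not show. The 3 tables hold 90 columns from 84 different arrays, since the DMSO arrays recur in each.

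Of 54715 probe sets, 102 control probe sets were left out, and 40914 had 1 symbol in the platform annotation, for 19774 genes. limma 3.58.1 in R 4.3.3 (lmFit and eBayes) fitted 1 mean per group in each set. The contrasts were each dose against DMSO, an F test over 9 doses, a slope per 10-fold dose over 27 treated arrays, 10 µM against the mean of the 3 lowest doses, and differences between compounds on values minus the DMSO mean. P-values are two-sided and adjusted by Benjamini-Hochberg over all genes within a contrast, with a threshold of 0.05. The steps were tested on simulated data.

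The 49 genes, the wider lists and the markers were chosen with earlier results of these data known. Single arrays are given for the 3 highest and 3 lowest changes per compound at 10 µM, the 2 strongest slopes and pair differences by moderated t, and 8 common markers. Other genes were named after their values were seen. Some genes of the wider and marker lists are not analysed here. Groups come from the sample labels. Promoters are RefSeq sequences of GRCh38.p14.

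Same-numbered replicates were checked for deviating together over doses. The correlations were 0.388, 0.209 and 0.0763 for fenbuconazole, -0.150, 0.0563 and 0.147 for imazalil and 0.411, 0.306 and 0.164 for 2,4-D, so by a limit of 0.1 in every pair the numbers pair the arrays in the 2,4-D set only. Alternatives covered probe sets, normalization, scaling, filters, variance models, a replicate block, the array spread and left-out arrays.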

Additional observations from a re-analysis of the deposited data

How the results depend on the processing

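No alternative gave a call among the 49 genes, in 189 recomputed counts over other probe sets, normalization, scaling, filters, variance models, fewer samples, a replicate block, the array spread and left-out arrays. The count of genes below DMSO, an alternative chosen after seeing the data, stayed within 1.5 times in all 54 recomputations. It ran from 32 to 42 with fenbuconazole, 21 to 30 with imazalil and 25 to 38 with 2,4-D. Some settings could not move it, since they left every change as it was. These were testing every probe set, leaving out genes under the median level, the variance model, fitting only the groups compared and the replicate block. They also had to keep the medians and the signs counted next. Medians moved by less than the spread of replicates in 97 recomputations and by more in 20, and single genes kept their sign in 800 and turned in 58. The cause was not tested.

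Joint quantile normalization gave medians of -0.028 for replication and -0.058 for mitosis genes at 10 µM fenbuconazole, -0.012 for MKI67 with imazalil and -0.0041 for CDK1 with 2,4-D. The mean of a gene's probe sets gave a mitosis minus replication median of 0.014 with 2,4-D, and CDK2 -0.015, E2F1 -0.0046, TOP2A -0.10 and CCNE1 0.0093 with fenbuconazole, TOP2A 0.038 with imazalil and CDK1 -0.0023 with 2,4-D. Equal array medians gave CDK1 -0.0037 with 2,4-D. The array interquartile range as a covariate gave E2F1 -0.0078 with fenbuconazole and MKI67 -0.024 with imazalil.

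With arrays left out in turn, the mitosis median ran from -0.12 to -0.050 with fenbuconazole, -0.041 to 0.059 with imazalil and -0.048 to 0.020 with 2,4-D. The replication median ran from -0.073 to -0.024, -0.027 to 0.018 and -0.044 to -0.00030 in the same order. With 1 array or replicate number left out, the 10 µM fenbuconazole change included both signs for CCNE1 from -0.082 to 0.014, E2F1 from -0.085 to 0.22, FOXM1 from -0.042 to 0.13, MCM2 from -0.089 to 0.049, MKI67 from -0.19 to 0.13 and TOP2A from -0.15 to 0.19. With 1 array or replicate number left out, the 10 µM imazalil change included both signs for CCNB1 from -0.042 to 0.12, MKI67 from -0.085 to 0.091 and TOP2A from -0.18 to 0.013. With 1 array or replicate number left out, the 10 µM 2,4-D change included both signs for CCNB1 from -0.032 to 0.066, CCNE1 from -0.049 to 0.040, CDK1 from -0.071 to 0.10, E2F1 from -0.22 to 0.10, MCM2 from -0.10 to 0.028, MKI67 from -0.17 to 0.025, PCNA from -0.056 to 0.13 and TOP2A from -0.14 to 0.059. Among genes that kept their sign, the ranges were -0.36 to -0.19 for BIRC5, -0.35 to -0.078 for TTK and -0.36 to -0.075 for KIF23 with fenbuconazole, 0.11 to 0.43 for CCNE2 and 0.11 to 0.51 for KIF23 with imazalil, and -0.23 to -0.022 for MCM10 and 0.0060 to 0.20 for CDK2 with 2,4-D.

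With the replicate block 0 of the 49 genes passed for any compound. Each group holds 1 array of every replicate number, so the replicate block could move the calls but not the changes or their counts below DMSO. The number of arrays limits precision, since 3 per group leave a median standard error of 0.084, 0.084 and 0.074 for the 49 genes at 10 µM fenbuconazole, imazalil and 2,4-D.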
